A study of Homo sapiens with 26 samples.

Results

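The genes described here encode heat shock proteins and chaperones of the cytosol and mitochondria, with their co-chaperones and the heat shock factors HSF1 and HSF2. They were chosen by symbol, 36 of the 19704 genes of the expression table, and a symbol listed more than once is represented by its most abundant row. By role they comprise 10 genes of the HSP70, HSP90 and HSP110 families, 5 J proteins, 4 co-chaperones, 3 small heat shock proteins, 4 mitochondrial chaperones, the 8 subunits of the CCT ring and the heat shock factors HSF1 and HSF2.

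Chaperones bind proteins that are unfolded or still folding and keep them from aggregating. HSP70 proteins cycle on and off their clients by hydrolysing ATP, which J proteins stimulate and exchange factors reset, and many clients then pass to HSP90, while actin and tubulin fold inside the closed chamber of the CCT ring. When unfolded proteins accumulate in the cytosol, HSF1 is released from chaperones, forms trimers and binds heat shock elements, inverted repeats of GAA, in the promoters of many of these genes.

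The cells were U2OS, a human osteosarcoma line, of a single reporter line carrying Arntl::dLUC, a luciferase under a promoter of the circadian clock. One arm was kept in medium of pH 6.3 and the other in medium of pH 7.4. Shared by both media were 5% fetal bovine serum, the buffers PIPES and HEPES at 25 mM each, and dexamethasone at 0.1 µM, a glucocorticoid that synchronises the clock; dishes of both arms were sealed and kept in air without bicarbonate buffering. Cells were harvested at 4 h intervals, at 13 times from 4 to 52 h, giving 13 libraries at pH 6.3 and 13 at pH 7.4. The times from 28 to 52 h came from dishes seeded and treated a day before those of 4 to 24 h, so that duration in the medium and set of dishes cannot be told apart. Each time and medium had 1 library and no replicate, and every p-value below measures the spread over times, which may be technical.

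The values are FPKM, that is, fragments counted on a transcript, divided by its length and by the library's mapped fragments. Each is a share of the RNA in its library, so that changes in cell number or in RNA per cell are not seen. A gene higher at pH 6.3 may thus only have fallen less than others. Depth, estimated from the spacing of low values, was 11070000 fragments at pH 6.3 and 8 h, 9700000 at pH 7.4 and 12 h, and between 19550000 and 35750000 in the other 24 libraries. These figures take the smallest step between values as 1 fragment, so that depths relative to each other are firmer than the totals. In 4 libraries the values leaned with the GC content of transcripts, with a correlation of 0.56 at pH 6.3 and 20 h, and of 0.63 at 28 h, -0.54 at 44 h and -0.62 at 48 h at pH 7.4. For the marker lists, higher and lower mean called at pH 6.3 over 4 to 52 h by the test given in the next paragraph. Over all genes tested, 22.4% were higher and 37.3% lower. Of 10 osteoblast markers 6 were tested, led by SPARC with a mean of 1000 FPKM, while SP7 was listed at 0 in every library. Of those 6, 0 were higher and 2 lower at pH 6.3, and the list's sum lay between 668 and 1625 FPKM at pH 6.3 and between 743 and 1779 FPKM at pH 7.4. Of 10 mesenchymal markers 9 were tested, with FN1 at 2128 FPKM, 2 higher and 4 lower, and their sum lay between 2240 and 3669 FPKM at pH 6.3 and between 3268 and 5123 FPKM at pH 7.4. Of 10 epithelial markers 6 were tested, led by KRT18 with a mean of 121 FPKM, with 0 higher and 5 lower, and the list's sum lay between 149.6 and 328 FPKM at pH 6.3 and between 161 and 321 FPKM at pH 7.4. Of 10 leukocyte markers 3 were tested, led by LCP1 at 16.1 FPKM, with 1 higher and 2 lower. Their list's sums were 9.02 to 21.1 FPKM at pH 6.3 and 16.4 to 42.3 FPKM at pH 7.4. None of 8 endothelial markers reached the filter, and their sum lay between 0.694 and 2.06 FPKM at pH 6.3 and between 1.02 and 3.43 FPKM at pH 7.4.

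The chaperone transcripts did not move as one block in acidic medium. On average over the times, DNAJB4, TCP1 and TRAP1 were higher than at pH 7.4, and CCT2, HSPE1 and DNAJB1 were lower. DNAJB1 was nevertheless higher at 4 and 8 h. Members of the same complex differed from pH 7.4 in opposite directions. A gene was tested when its mean over the 26 libraries was at least 1 FPKM, and 32 of the 36 members passed. Called genes had an adjusted p below 0.05 for the difference in log2(FPKM + 1), pH 6.3 minus pH 7.4, from limma with Benjamini-Hochberg adjustment over 11838 genes and the time as a block. Over 4 to 52 h, 11 of 32 members were higher, against a background of 22.4% of all genes tested, 6 were lower, against 37.3%, and 15 were not called. Together 17 members were called, and the background of 59.7% in either direction means that this total is no result about chaperones. The median difference was 0.11 over the members and -0.12 over all genes tested. The split depends on scaling, since quantile normalization gave 9 higher and 9 lower members and a correction for GC content gave 17 higher and 4 lower. Those settings also moved the median of all genes to -0.02 by a shift of 0.11, and the share of higher genes among the calls to 48.1% and 49.3%, compared with 37.5% as first fitted.

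As a share of all FPKM in a library, the 32 tested members held 1.19 ± 0.188% at pH 6.3 and 1.12 ± 0.154% at pH 7.4 (SD, n = 13 each). The ranges were 0.941 to 1.57% at pH 6.3 and 0.938 to 1.40% at pH 7.4. The share was higher at pH 6.3 at the 9 times from 8 to 40 h and lower at 4, 44, 48 and 52 h.

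**Figure D1:**
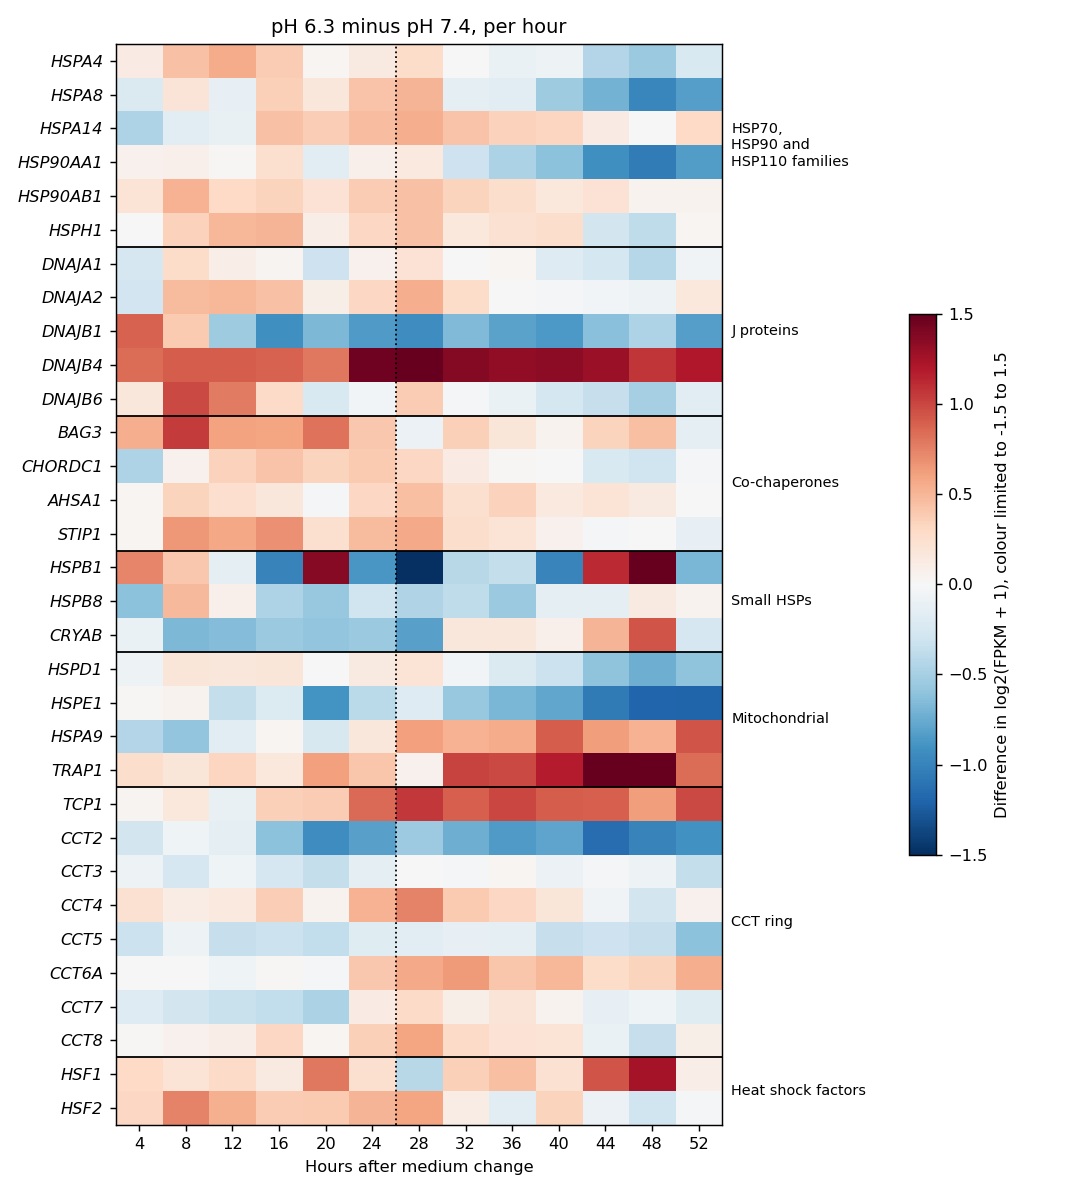
Difference of log2(FPKM + 1), pH 6.3 minus pH 7.4, for the 32 members tested (rows, by role) at the 13 times (columns, hours after the medium change). Red marks higher and blue lower values at pH 6.3, colours stop at 1.5 in either direction, and the dotted line parts the sets of dishes. DNAJB4 is red and CCT2 blue at all 13 times, and DNAJB1 passes from red at 4 and 8 h to blue from 12 h on.

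Heat shock elements were looked for in the RefSeq promoter windows of GRCh38.p14, 250 bases before to 50 after each start, which were at hand for 32 of the 36 members. An element of 3 units, spelled as GAANNTTC followed by NNGAA, or as TTCNNGAA followed by NNTTC, and sought on both strands, was found in 7 members: HSPA8, HSP90AA1, HSP90AB1, DNAJA1, DNAJB6, CHORDC1 and HSPD1. It was found in 0.608% of all 27305 genes with a window and in 0.490% of all windows of that length. The shorter form of 2 units, GAANNTTC or TTCNNGAA, which every 3-unit element contains, was found in 19 members and in 16.2% of all genes. A match is a description of these letters and not evidence that a factor binds. The stretches below, each read on the strand of its gene, are shown because they let the elements be set beside the values that follow. Capitals mark 3-unit elements in HSPA8, HSP90AA1, HSP90AB1, CHORDC1, DNAJB6 and HSPD1, and 2-unit elements in DNAJB1 and DNAJB4, which have none of 3 units. They lie at chr11:123062157-123062216 (minus strand) for HSPA8, chr14:102087095-102087154 (minus) for HSP90AA1, chr6:44247768-44247852 (plus) for HSP90AB1, chr19:14518428-14518487 (minus) for DNAJB1, chr1:78004829-78004878 (plus) for DNAJB4, chr7:157336864-157336923 (plus) for DNAJB6, chr11:90223065-90223124 (minus) for CHORDC1 and chr2:197500051-197500090 (minus) for HSPD1. The HSPD1 stretch lies upstream of an inner RefSeq start at 197499840 and downstream of the outermost HSPD1 start at 197500274.
HSPA8: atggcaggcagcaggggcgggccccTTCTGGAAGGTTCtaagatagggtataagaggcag
HSP90AA1: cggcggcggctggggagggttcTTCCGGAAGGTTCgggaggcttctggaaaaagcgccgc
HSP90AB1: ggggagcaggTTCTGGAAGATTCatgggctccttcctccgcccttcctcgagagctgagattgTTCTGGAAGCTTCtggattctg
DNAJB1: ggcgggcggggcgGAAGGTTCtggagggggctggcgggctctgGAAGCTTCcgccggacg
DNAJB4: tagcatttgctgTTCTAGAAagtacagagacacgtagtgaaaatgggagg
DNAJB6: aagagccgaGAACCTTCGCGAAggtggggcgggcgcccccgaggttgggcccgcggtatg
CHORDC1: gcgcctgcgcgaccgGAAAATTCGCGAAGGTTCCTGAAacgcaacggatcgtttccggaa
HSPD1: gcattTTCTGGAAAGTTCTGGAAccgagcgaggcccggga

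Of the 7 members with a 3-unit element, HSP90AB1 was called higher over 4 to 52 h, HSP90AA1 was called lower, and HSPA8, DNAJA1, DNAJB6, CHORDC1 and HSPD1 were not called. The 3 members with the largest differences, DNAJB4, TRAP1 and CCT2, had no 3-unit element in these windows, like most of the 32 members with a window. DNAJB4 and CCT2 did hold elements of 2 units. Whether heat shock elements bear on these differences was not tested.

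In the HSP70, HSP90 and HSP110 families, 6 of 10 genes were tested and the other 4 were too low to test. Over the whole course 1 was higher, against 22.4% of all genes tested, 1 lower, against 37.3%, and 4 were not called. HSPA1A, the strongly heat-inducible HSP70, was above 0 in 5 of 26 libraries and reached 0.116 FPKM at pH 6.3 and 20 h, and its near-identical neighbour HSPA1B was listed at 0 in every library. Their coding sequences of 1926 bases differ at 4 positions (99.79% identity), and 72.6% of all 50-base windows of the HSPA1A transcript also occur in HSPA1B. A value of 0 therefore cannot be read as absence of the transcripts, since the handling of reads that fit both genes is not stated. HSPA2 and HSPA4L stayed below 0.114 FPKM in every library.

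HSPA8, the constitutive HSP70 of the cytosol, was the most abundant member. It had 734 FPKM at its lowest, a median of 1305 and 2464 at its highest at pH 6.3, against 966, 1354 and 2158 FPKM at pH 7.4. The groups overlapped, but at pH 6.3 each library from 28 to 52 h lay below the one before, ending at 734 FPKM, while at pH 7.4 the values at 32 to 52 h ran between 1238 and 1509 FPKM. Over the course the difference was -0.16 (SE 0.12, limma adjusted p = 0.279), with 0.13 in 4 to 24 h (adjusted p = 0.505) and -0.40 in 28 to 52 h (adjusted p = 0.0212). The later call was lost after the GC correction (adjusted p = 0.0686), whereas quantile normalization called HSPA8 lower over the whole course (-0.35, adjusted p = 0.0288). Of its 50-base windows 15.4% also occur in 10 other genes, led by the pseudogene HSPA8P1.

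HSP90AA1, the stress-inducible HSP90, followed the same shape. Its values were 103, 174.5 and 346 FPKM (lowest, median, highest) at pH 6.3, against 158, 202 and 327 FPKM at pH 7.4. Through 28 h the media differed by at most 43.8 FPKM, and after that every pH 6.3 library lay below every pH 7.4 library, with 155 FPKM or less at pH 6.3 and 185 FPKM or more at pH 7.4 from 32 to 52 h. The difference was 0.05 in 4 to 24 h (SE 0.12, adjusted p = 0.764) and -0.58 in 28 to 52 h (SE 0.11, limma adjusted p = 0.000454). Over the whole course HSP90AA1 was called lower at -0.29 (adjusted p = 0.0382), a call that 11 of 22 alternative settings lost.

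HSP90AB1, the constitutive HSP90, also declined over the course at pH 6.3, but its offset from pH 7.4 had the opposite sign. It ranged over 667, 925 and 1352 FPKM (lowest, median, highest) at pH 6.3 and over 621, 688 and 1055 FPKM at pH 7.4. It was higher at pH 6.3 at 13 of 13 times, which 4.43% of all genes tested were, although the ranges overlapped because both media declined over the course. The difference was 0.27 (SE 0.05, limma adjusted p = 0.000301), and it narrowed to 0.05 by 52 h. Quantile normalization lowered it to 0.09 (adjusted p = 0.172). The ratio of HSP90AB1 to HSP90AA1 FPKM averaged 5.19 ± 0.953 at pH 6.3 and 3.49 ± 0.469 at pH 7.4 (SD, n = 13 each) and was higher at pH 6.3 at 13 of 13 times. Windows of 50 bases shared with other genes made up 17.5% of the HSP90AA1 and 18.8% of the HSP90AB1 transcript, led by HSP90AA2P and HSP90AB3P.

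HSPA4 and HSPH1 encode HSP110 proteins, which act as exchange factors for HSP70. HSPA4 had 185, 243 and 352 FPKM (lowest, median, highest) at pH 6.3, against 213, 234.8 and 272 FPKM at pH 7.4. It was higher at pH 6.3 at 6 of 6 early times and lower at 6 of 7 late ones, with 0.28 in 4 to 24 h (SE 0.10, limma adjusted p = 0.0403) and -0.16 in 28 to 52 h (SE 0.10, adjusted p = 0.158). The early call was lost with quantile normalization (0.20, adjusted p = 0.142) and without the doubtful times (0.21, adjusted p = 0.126). HSPH1 ranged from 119 to 228 FPKM at pH 6.3 and from 109 to 195 FPKM at pH 7.4 and was called higher in 4 to 24 h (0.30, adjusted p = 0.0387) but not over the course (0.17, adjusted p = 0.0730). HSPA14, a ribosome-associated HSP70, lay between 37.3 and 53.7 FPKM at pH 6.3 and between 33.6 and 52.9 FPKM at pH 7.4. It was higher in every late pH 6.3 library than in every late pH 7.4 library (0.29, adjusted p = 0.0373), though the lowest at pH 6.3 was 41.26 FPKM and the highest at pH 7.4 was 41.15 FPKM. That call was lost with quantile normalization (0.28, adjusted p = 0.0550) and without 4 or 6 doubtful times (adjusted p = 0.0958 and 0.0797), and 22.2% of its windows are shared with a second gene model of the same symbol.

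**Figure D2:**
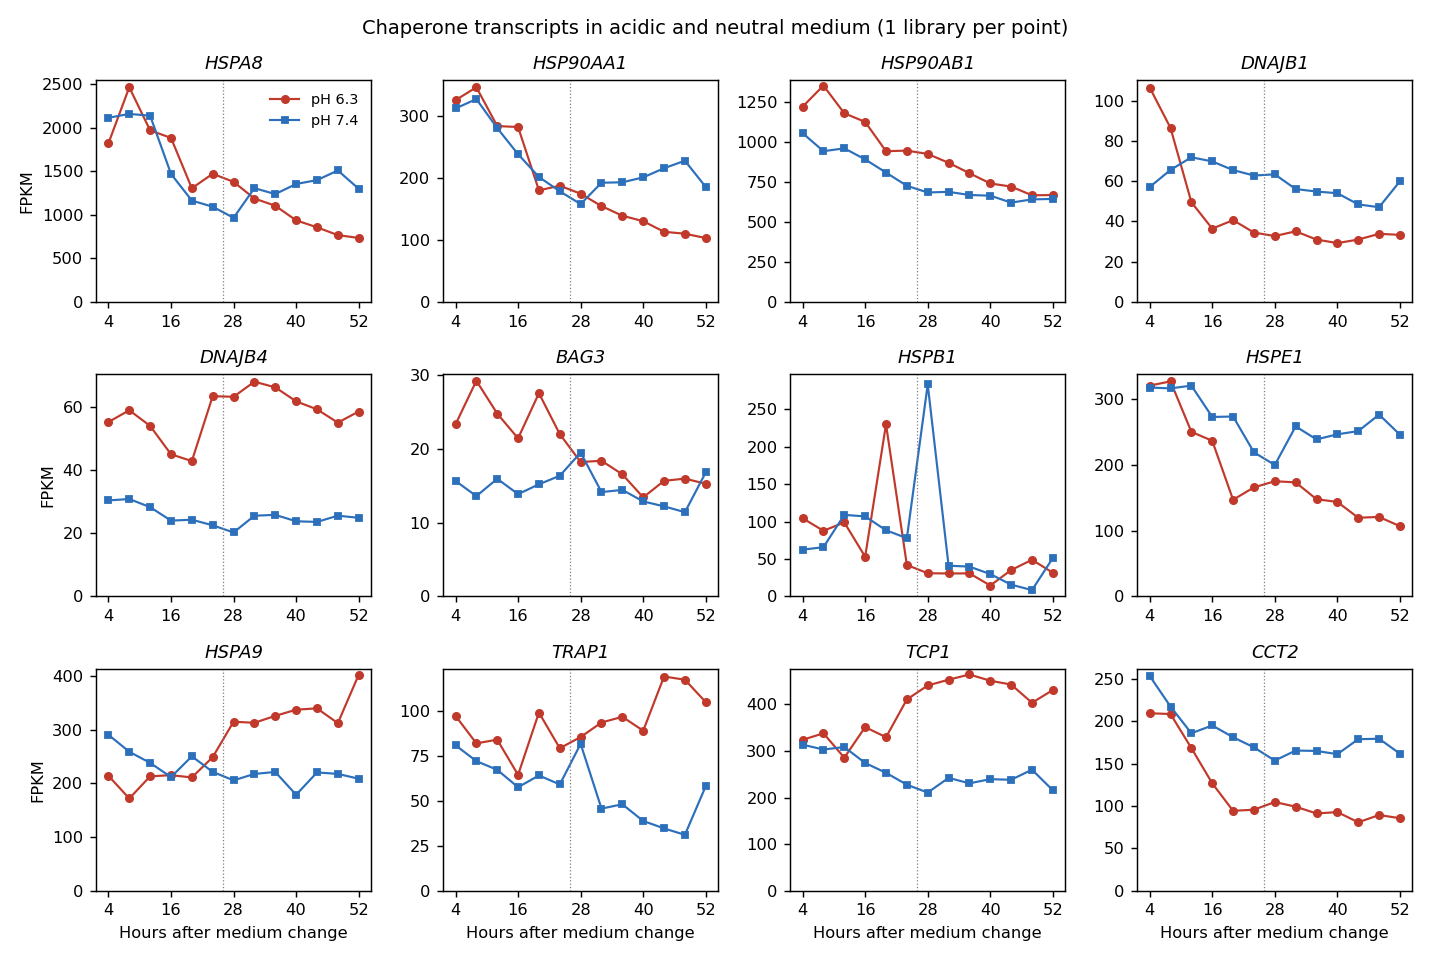
FPKM (vertical axes, from 0) against hours after the medium change for 12 members at pH 6.3 (red circles) and pH 7.4 (blue squares), 1 library per point; the dotted line parts the sets of dishes. HSPA8 and HSP90AA1 decline at each step from 28 to 52 h at pH 6.3, HSPA9 and TCP1 are on average higher in 28 to 52 h than in 4 to 24 h at pH 6.3, and the spikes of HSPB1 at 230 FPKM (pH 6.3, 20 h) and 283 FPKM (pH 7.4, 28 h) fall in libraries that lean with GC content.

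The J proteins, which bring clients to HSP70 and trigger its ATP hydrolysis, gave 1 higher, 1 lower and 3 uncalled of 5. Over all genes tested, 22.4% were higher and 37.3% lower. DNAJB4, a J protein abundant in muscle, had 42.8, 58.9 and 68.0 FPKM (lowest, median, highest) at pH 6.3, against 20.2, 24.9 and 30.8 FPKM at pH 7.4. Every pH 6.3 library lay above every pH 7.4 library. No other tested member was separated in this way, and 3.66% of all genes tested were. The difference was 1.15 (SE 0.08, limma adjusted p = 6.9e-08), present at 4 h (0.84) and largest at 28 h (1.60), and it held in all 22 alternative settings, between 1.12 and 1.31.

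DNAJB1, the heat-inducible partner of HSP70, was higher at pH 6.3 at 4 and 8 h and lower from 12 h on. At pH 6.3 it had 106.5 FPKM at 4 h and 86.4 at 8 h, the highest values of any library, then 49.5 at 12 h and 29.2 to 40.6 FPKM from 16 h on. At pH 7.4 it stayed between 47.0 and 71.9 FPKM throughout. The hourly difference was 0.89 at 4 h, 0.39 at 8 h and between -0.46 and -0.93 at the 11 times from 12 h on, where pH 6.3 was lower at each. Its mean over the course was -0.53 (SE 0.14, limma adjusted p = 0.00394) and it held in all 22 alternative settings. In 4 to 24 h the difference was -0.28 (limma adjusted p = 0.254) and in 28 to 52 h -0.74 (adjusted p = 0.00207). The change between these periods was not called (limma adjusted p = 0.239). Each early rise rests on 1 library per medium, and the pH 6.3 library of 8 h was shallow, with 11070000 fragments. The ratio of DNAJB4 to DNAJB1 FPKM was 0.518 at pH 6.3 and 0.532 at pH 7.4 at 4 h, and 1.76 at pH 6.3 and 0.415 at pH 7.4 at 52 h. These are the called members of the 5 J proteins, of opposite sign, so that a shift in the ratio follows from that choice.

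The remaining J proteins were not called over the course. DNAJA1, a cytosolic partner of HSP70, lay between 123 and 295 FPKM at pH 6.3 and between 135 and 293 FPKM at pH 7.4 (-0.06, adjusted p = 0.466). DNAJA2, of the same class, lay between 42.5 and 70.7 FPKM at pH 6.3 and between 37.4 and 62.5 FPKM at pH 7.4 (0.18, adjusted p = 0.0672), and 3 of 22 alternatives called it higher, upper-quartile scaling, the GC correction and leaving out 4 h. DNAJB6, known for suppressing aggregation of polyglutamine proteins, reached 149 FPKM at pH 6.3 and 8 h, against 74.6 FPKM at pH 7.4 and 8 h, and that pH 6.3 library was the shallower of the pair, with 11070000 fragments. Over the course its difference was 0.07 (adjusted p = 0.607).

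Of the 4 co-chaperones of HSP70 and HSP90, 3 were higher, against 22.4% of all genes tested, and none lower, against 37.3%, and each of the 3 calls was lost in 1 or 2 of 22 alternative settings. BAG3, an HSP70 exchange factor that directs clients to autophagy and is itself a target of HSF1, had 13.4, 18.4 and 29.2 FPKM (lowest, median, highest) at pH 6.3, against 11.4, 14.4 and 19.5 FPKM at pH 7.4. All 6 pH 6.3 libraries of 4 to 24 h, at 21.4 FPKM or more, exceeded every pH 7.4 library, while the later ones overlapped with them. The difference was 0.67 in 4 to 24 h (SE 0.12, limma adjusted p = 0.000561) and 0.17 in 28 to 52 h (SE 0.11, adjusted p = 0.196), and 0.40 over the course (adjusted p = 0.00312). Without the 6 times at which a library was shallow or leaned with GC content, the last value was 0.29 (adjusted p = 0.0553).

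STIP1, which bridges HSP70 and HSP90, reached 459 FPKM at pH 6.3 and 8 h and 324 FPKM at pH 7.4 and 4 h, and was higher by 0.28 (SE 0.08, limma adjusted p = 0.00662), a call lost without those 6 times at a difference of 0.23 (adjusted p = 0.0708). AHSA1, the activator of the HSP90 ATPase, lay between 219 and 376 FPKM at pH 6.3 and between 212 and 306 FPKM at pH 7.4. It was higher by 0.20 (SE 0.06, adjusted p = 0.00492) and at 12 of 13 times, a call that quantile normalization lost (adjusted p = 0.0796). CHORDC1, an HSP90 partner and the member with the longest run of heat shock units among the stretches shown, lay between 39.5 and 61.4 FPKM at pH 6.3 and between 39.8 and 71.3 FPKM at pH 7.4. It was not called at 0.08 (adjusted p = 0.461), and 4 h gave its lowest hourly difference (-0.46).

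None of the 3 small heat shock proteins, ATP-independent holdases that bind unfolding proteins, was called over the course, where 59.7% of all genes tested were. HSPB1 had 14.5, 42.0 and 230 FPKM (lowest, median, highest) at pH 6.3, against 8.37, 62.5 and 283 FPKM at pH 7.4. Its highest values at each pH, at 20 h for pH 6.3 and at 28 h for pH 7.4, and its lowest, at 48 h for pH 7.4, came from 3 of the 4 libraries that leaned with GC content, and 64.5% of the bases of its transcript are G or C. The difference was -0.12 (SE 0.33, limma adjusted p = 0.769), -0.16 after the GC correction (adjusted p = 0.494), and -0.51 without the 6 doubtful times (adjusted p = 0.0446).

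HSPB8, which works with BAG3, had 14.3, 18.2 and 40.5 FPKM (lowest, median, highest) at pH 6.3 and 18.4, 22.6 and 51.6 FPKM at pH 7.4. The groups overlapped, though 7 pH 6.3 libraries lay below all of pH 7.4, and the difference was -0.22 (SE 0.10, limma adjusted p = 0.0655). Without the 6 doubtful times it was called at -0.34 (adjusted p = 0.0214). CRYAB, the alpha B crystallin, had 20.1 to 46.8 FPKM at pH 6.3 and 19.7 to 74.9 FPKM at pH 7.4. It was lower at pH 6.3 at 6 of 6 early times (-0.52, SE 0.17, adjusted p = 0.0210), a call lost without the doubtful times at -0.41 (adjusted p = 0.0903), and was at 0.12 in 28 to 52 h (adjusted p = 0.537).

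The mitochondrial chaperones moved apart in pairs. HSPD1 and HSPE1 encode the barrel and the lid of one chaperonin, HSP60 and HSP10, and lie head to head on chromosome 2, with a gap of 104 bases between their outermost RefSeq starts at 197500274 (minus strand, HSPD1) and 197500379 (plus strand, HSPE1). HSPA9, the mitochondrial HSP70, and TRAP1, the mitochondrial HSP90, complete the group. Over 4 to 52 h TRAP1 was higher, HSPE1 lower and HSPD1 and HSPA9 were not called, and in 28 to 52 h HSPA9 and TRAP1 were higher while HSPD1 and HSPE1 were lower. Of all genes tested, 22.4% were higher and 37.3% lower over 4 to 52 h, and 25.2% and 33.4% in 28 to 52 h. The sequence between the starts, chr2:197500275-197500378 on the strand of HSPE1, is shown because the pair shares it. It holds no heat shock element of 2 or 3 units, and its capitals are therefore absent.
HSPE1: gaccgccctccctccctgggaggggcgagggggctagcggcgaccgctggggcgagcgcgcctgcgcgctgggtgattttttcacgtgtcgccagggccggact

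HSPE1 had 107, 166 and 326 FPKM (lowest, median, highest) at pH 6.3, against 199.5, 258 and 320 FPKM at pH 7.4. From 28 h on every pH 6.3 library, at 174.8 FPKM or less, lay below every pH 7.4 library, and across the course 9 pH 6.3 libraries did. The difference was -0.58 (SE 0.11, limma adjusted p = 0.000356), near 0 at 4 h (0.01) and -1.20 at 52 h, and it held in all 22 alternative settings. HSPD1 ranged over 179, 264 and 439 FPKM at pH 6.3 and 234.6, 288 and 464 FPKM at pH 7.4, with -0.13 over the course (SE 0.09, adjusted p = 0.209) and -0.33 in 28 to 52 h (SE 0.10, adjusted p = 0.00900). Windows shared with other genes made up 27.2% of the HSPE1 and 24.8% of the HSPD1 transcript, and the gene models overlap, while the strand setting of the counting is not stated. The ratio of HSPD1 to HSPE1 FPKM was 1.57 ± 0.131 at pH 6.3 and 1.15 ± 0.114 at pH 7.4 (SD, n = 13 each), higher at pH 6.3 at 12 of 13 times.

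HSPA9 had 172, 312 and 402 FPKM (lowest, median, highest) at pH 6.3, against 179, 220 and 290 FPKM at pH 7.4. All 7 pH 6.3 libraries of 28 to 52 h, at 312 FPKM or more, lay above all of pH 7.4, whereas in 4 to 24 h they ran between 172 and 248.8 FPKM and were lower at 4 of 6 times. The difference was -0.21 in 4 to 24 h (SE 0.10, limma adjusted p = 0.104) and 0.67 in 28 to 52 h (SE 0.09, adjusted p = 1.79e-05). The ratio of HSPA9 to HSPD1 FPKM was 0.488 at pH 6.3 and 0.626 at pH 7.4 at 4 h, and 2.25 at pH 6.3 and 0.766 at pH 7.4 at 52 h.

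TRAP1 had 64.7, 93.8 and 120 FPKM (lowest, median, highest) at pH 6.3, against 31.2, 58.4 and 81.9 FPKM at pH 7.4. It was higher at pH 6.3 at 13 of 13 times, and 11 pH 6.3 libraries lay above all of pH 7.4. The difference was 0.75 over the course (SE 0.15, limma adjusted p = 0.000483), 0.33 in 4 to 24 h (adjusted p = 0.141) and 1.10 in 28 to 52 h (adjusted p = 3.2e-05). Between these periods the mean of TRAP1 went from 84.6 to 101.2 FPKM at pH 6.3, which was not called. At pH 7.4 it went from 67.05 to 48.47 FPKM, a called decline. Its highest and lowest values at pH 7.4 fell at 28 and 48 h, in libraries that leaned with GC content, and 56.0% of its transcript is G or C. Without the 6 doubtful times the difference over the course was 0.70 (adjusted p = 0.00290), and after the GC correction it was 0.83 (adjusted p = 1.04e-05).

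**Figure D3:**
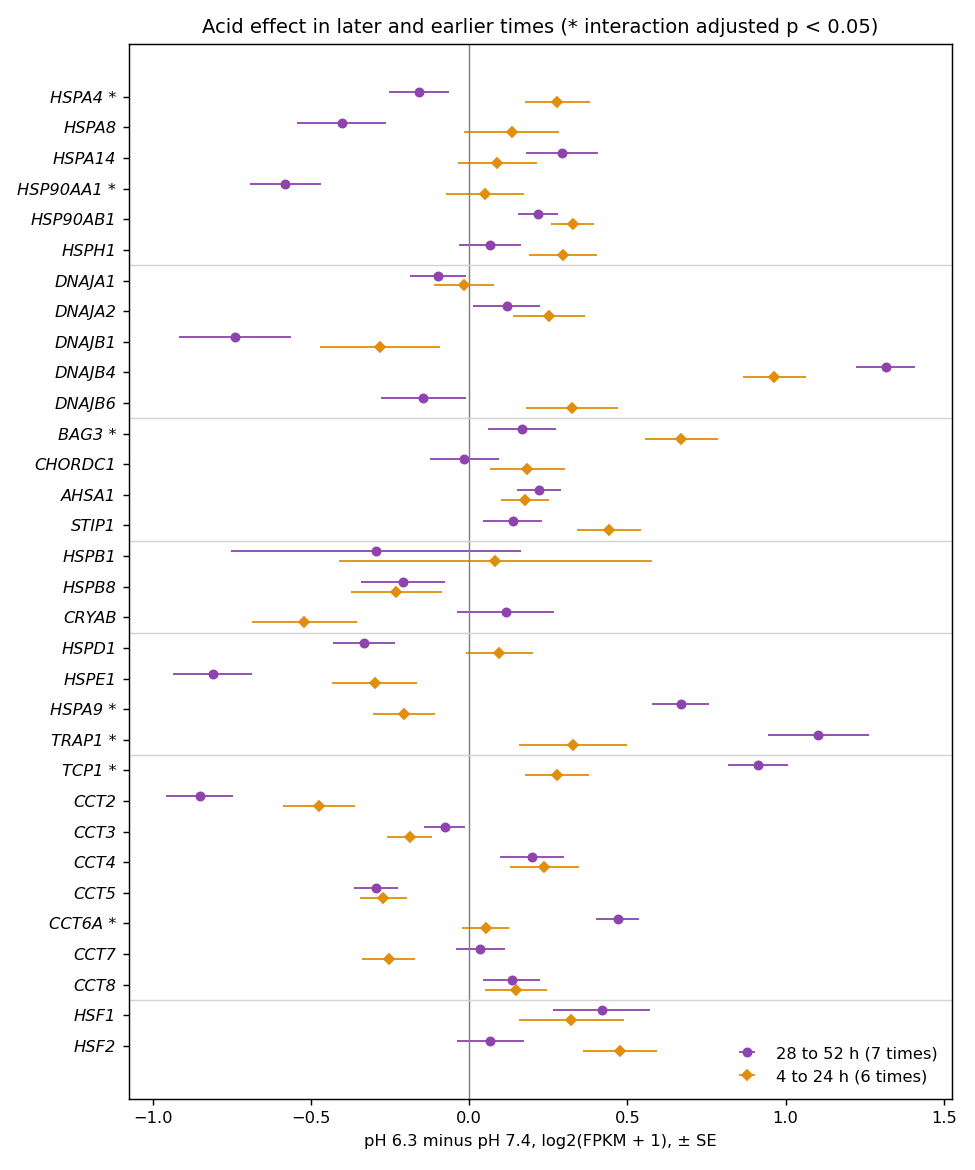
Acid effect on each tested member, pH 6.3 minus pH 7.4 in log2(FPKM + 1) with its SE, in 28 to 52 h (purple circles) and 4 to 24 h (orange diamonds). Stars mark the 7 members for which the difference between both periods was called; HSPA9 stands at 0.67 in 28 to 52 h, against -0.21 in 4 to 24 h, and HSP90AA1 at -0.58, against 0.05.

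The CCT ring holds 8 different subunits, each present once in either of its stacked rings, so that the complex needs equal numbers of each protein. Over 4 to 52 h TCP1, CCT4 and CCT6A were higher at pH 6.3, against a background of 22.4% of all genes tested. CCT2, CCT3 and CCT5 were lower, against 37.3%, and CCT7 and CCT8 were not called. With 59.7% of all genes called in either direction, this split is by itself no result about the ring. TCP1, the alpha subunit, had 286, 411 and 464 FPKM (lowest, median, highest) at pH 6.3, against 211, 242 and 314 FPKM at pH 7.4. At pH 6.3, 12 of 13 libraries lay above all of pH 7.4, the exception being 12 h. The difference was 0.62 over the course (SE 0.11, limma adjusted p = 0.000109), with 0.28 in 4 to 24 h (adjusted p = 0.0389) and 0.91 in 28 to 52 h (adjusted p = 1.67e-06).

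CCT2, the beta subunit, had 80.9, 95.7 and 210 FPKM (lowest, median, highest) at pH 6.3, against 154, 179 and 254 FPKM at pH 7.4. It was lower at pH 6.3 at 13 of 13 times, as 8.19% of all genes tested were, and the 10 libraries from 16 h on lay below all of pH 7.4. The difference was -0.68 (SE 0.09, limma adjusted p = 1.52e-05), and the hourly value was -0.06 at 8 h and -1.14 at 44 h. Calls of TCP1 and CCT2 over the course held in all 22 alternative settings. CCT2 shares none of its 50-base windows with another gene, and TCP1 shares 7.80%.

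Among the other subunits, CCT5 was lower at 13 of 13 times by 0.28 on average (log2 difference -0.28, SE 0.06, limma adjusted p = 0.000341). It lay between 193 and 414 FPKM at pH 6.3 and between 267 and 509 FPKM at pH 7.4. CCT6A lay between 311 and 497 FPKM at pH 6.3 and between 286 and 419 FPKM at pH 7.4. It was level with pH 7.4 until 20 h and then above it at every time, with 0.05 in 4 to 24 h (SE 0.08, adjusted p = 0.611) and 0.47 in 28 to 52 h (SE 0.07, adjusted p = 4.2e-05). CCT4 lay between 255.5 and 370.1 FPKM at pH 6.3 and between 214 and 315 FPKM at pH 7.4, and CCT3 between 173 and 329 FPKM at pH 6.3 and between 184.5 and 346 FPKM at pH 7.4. CCT4 was higher by 0.22 (adjusted p = 0.0208), a call that quantile normalization lost (adjusted p = 0.267), and CCT3 was lower by -0.13 (adjusted p = 0.0488), a call that 15 of 22 alternatives lost. CCT7 lay between 247 and 338 FPKM at pH 6.3 and between 262 and 408 FPKM at pH 7.4, and CCT8 between 350.0 and 504 FPKM at pH 6.3 and between 326 and 494 FPKM at pH 7.4. CCT7 and CCT8 had differences of -0.10 (adjusted p = 0.233) and 0.14 (adjusted p = 0.0871).

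The summed FPKM of the 8 subunits was 2492 ± 239.5 at pH 6.3 and 2363 ± 323 at pH 7.4 (SD, n = 13 each), and which medium was higher changed with time. The sum was lower at pH 6.3 at each time from 4 to 20 h and higher from 24 to 44 h, with 2673 FPKM at pH 6.3 and 2014 FPKM at pH 7.4 at 28 h. The most abundant subunit exceeded the least abundant, CCT2 in every library, 4.29 ± 1.07 times at pH 6.3 and 2.24 ± 0.155 times at pH 7.4. The ratio of TCP1 to CCT2 FPKM was 3.78 ± 1.41 at pH 6.3 and 1.41 ± 0.100 at pH 7.4 and was higher at pH 6.3 at 13 of 13 times. These subunits had the largest rise and the largest fall of the 8, so that a shift in their ratio follows from that choice. The ratio was 1.55 at pH 6.3 and 1.24 at pH 7.4 at 4 h, 1.70 at pH 6.3 and 1.66 at pH 7.4 at 12 h, and 5.47 at pH 6.3 and 1.33 at pH 7.4 at 44 h.

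**Figure D4:**
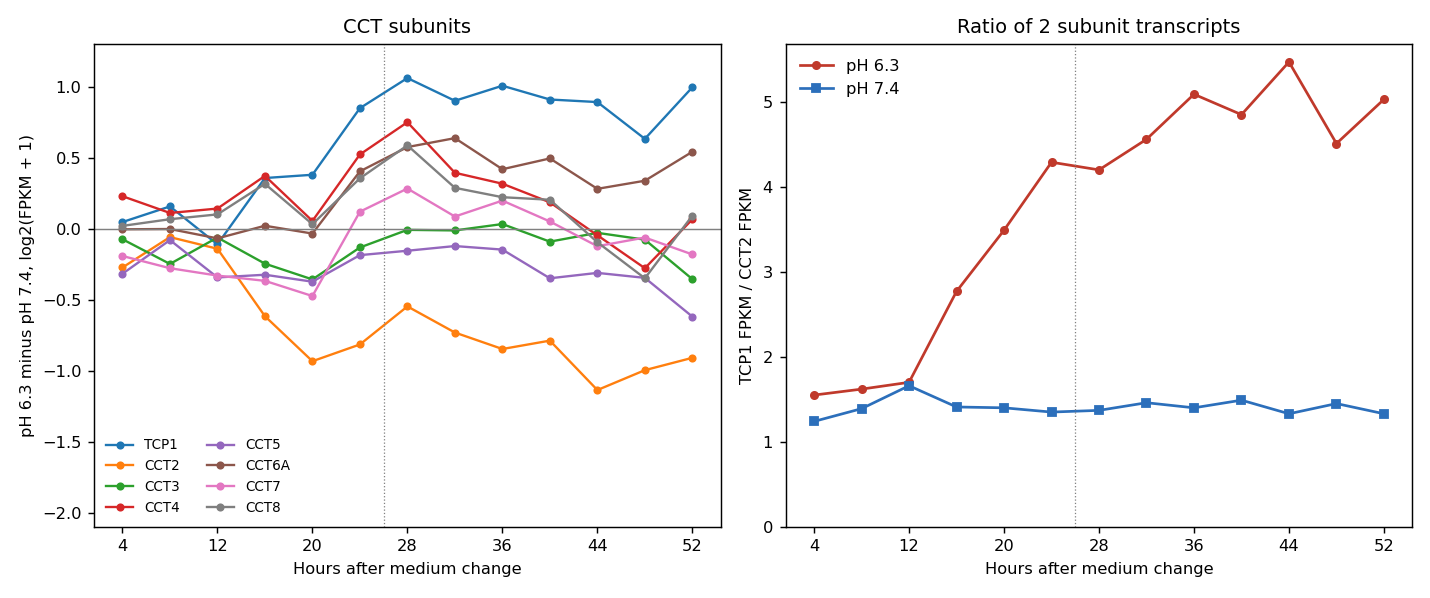
Left, pH 6.3 minus pH 7.4 in log2(FPKM + 1) of the 8 CCT subunits by hours after the medium change. Right, ratio of TCP1 to CCT2 FPKM in each library at pH 6.3 (red circles) and pH 7.4 (blue squares), 1 library per point: it stays between 1.24 and 1.66 at pH 7.4 and is 2.77 or more at pH 6.3 from 16 h on. TCP1 and CCT2 were taken as the subunits with the largest rise and the largest fall.

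The heat shock factors HSF1 and HSF2 were both called higher over 4 to 52 h, against 22.4% of all genes tested. The call held for HSF1 in all 22 alternative settings and for HSF2 in all but 9. HSF1 had 39.1, 51.4 and 75.7 FPKM (lowest, median, highest) at pH 6.3, against 24.3, 40.2 and 68.7 FPKM at pH 7.4. It was higher at pH 6.3 at 12 of 13 times, and its highest value at pH 6.3, at 20 h, and its highest and lowest at pH 7.4, at 28 and 48 h, were in libraries that leaned with GC content, 63.9% of its transcript being G or C. The difference was 0.38 (SE 0.11, limma adjusted p = 0.00898), and 0.26 without the 6 doubtful times (adjusted p = 0.0218). HSF2 lay between 23.5 and 41.9 FPKM at pH 6.3 and between 21.7 and 29.2 FPKM at pH 7.4. It was higher by 0.26 (SE 0.10, adjusted p = 0.0289), and was at 0.21 and not called without those times (adjusted p = 0.122). Leaving out any 1 of 7 single times also ended the call of HSF2.

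Within 4 to 24 h, 8 of 32 members were higher, against a background of 11.9% of all genes tested, and 5 were lower, against 28.0% (13 in either direction, against 40.0%). The higher ones were HSPA4, HSP90AB1, HSPH1, DNAJB4, BAG3, STIP1, TCP1 and HSF2, and the lower ones CRYAB, CCT2, CCT3, CCT5 and CCT7. These counts depended on scaling, being 4 and 7 with quantile normalization and 18 and 2 with the GC correction. Without 8, 12, 20 and 28 h they were 3 and 1, with 3 early times left, and several lost calls kept much of their size, with TCP1 at 0.42, against 0.28 with all times, STIP1 at 0.39, against 0.44, and HSPH1 at 0.28, against 0.30. Within 28 to 52 h, 9 members were higher, against a background of 25.2%, and 7 lower, against 33.4% (16 in either direction, against 58.6%). For 9 of 32 members the 7 late libraries of each medium did not overlap, against a background of 40.3%.

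The change in the acid effect between both periods was tested as an interaction. It was called higher for 4 members, HSPA9, TRAP1, TCP1 and CCT6A, with a background of 10.5%, and lower for 3, HSPA4, HSP90AA1 and BAG3, with a background of 6.56% (7 in either direction, against 17.1%). The largest was that of HSPA9 at 0.88 (SE 0.13, limma adjusted p = 0.00101). Without the 6 doubtful times none of these members was called, and 2 genes of all tested were, with 7 of 13 times left. The values themselves were then 0.82 for HSPA9 (adjusted p = 0.0688), 0.73 for TRAP1 (0.0616), 0.54 for TCP1 (0.130), 0.38 for CCT6A (0.135), -0.69 for HSP90AA1 (0.0636), -0.40 for BAG3 (0.246) and -0.32 for HSPA4 (0.161), all of the same sign as before.

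More members were lower than higher in 28 to 52 h than in 4 to 24 h, in each medium. At pH 6.3, the comparison of 28 to 52 h with 4 to 24 h called 17 members lower, against a background of 16.6%, and 3 higher, against 25.0% (20 in either direction, against 41.6%), with a median of -0.31 over the members and 0.05 over all genes. The lower ones included all 4 co-chaperones and HSPA8 (-0.87, limma adjusted p = 0.000293), HSP90AA1 (-0.99, adjusted p = 2.81e-05) and HSPE1 (-0.73, adjusted p = 0.000544). HSPB1 had the lowest value of them (-1.51, adjusted p = 0.0137), with its peak of 230 FPKM at 20 h among the early libraries. The higher ones were HSPA9 (0.66, adjusted p = 1.6e-06), TCP1 (0.38, adjusted p = 0.000472) and CCT6A (0.27, adjusted p = 0.00878). At pH 7.4, 7 members were lower, against a background of 3.14%, and 0 higher, against 4.44% (7 in either direction, against 7.59%; median -0.22 over the members and -0.01 over all genes). Those were HSP90AB1, AHSA1, CRYAB, TRAP1, CCT3, CCT5 and CCT7, among which CRYAB had the lowest value (-0.87, adjusted p = 0.00127). In this comparison time and set of dishes cannot be told apart.

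**Figure D5:**
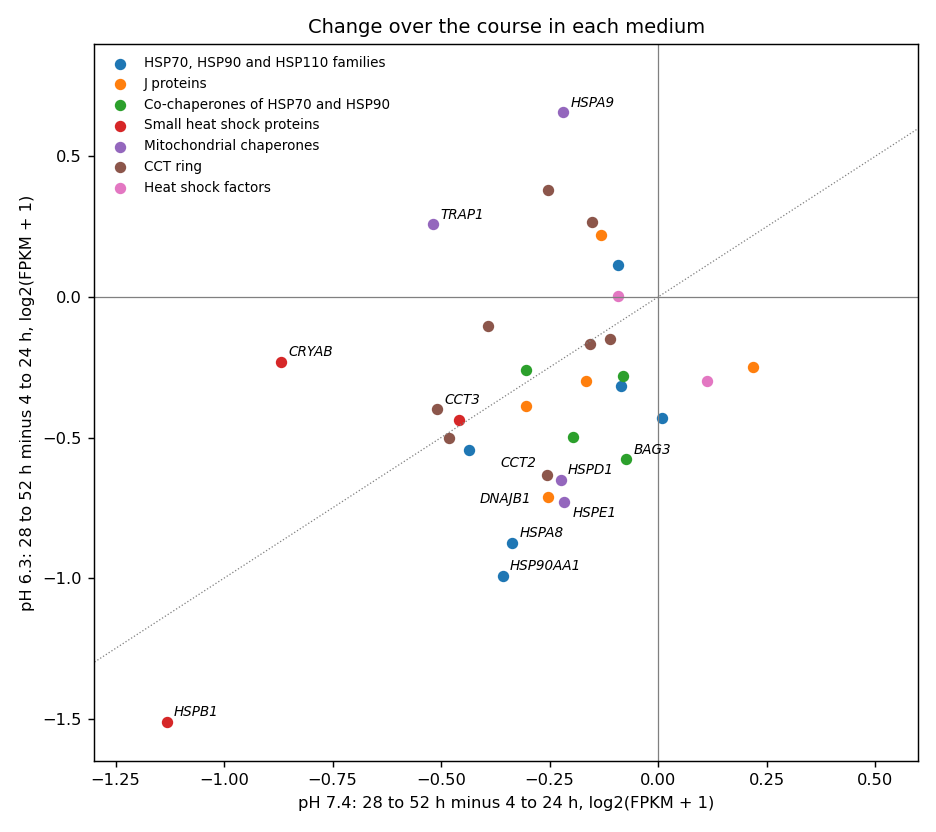
Change over the course, 28 to 52 h minus 4 to 24 h in log2(FPKM + 1), at pH 6.3 (vertical) and at pH 7.4 (horizontal) for the 32 members tested, coloured by role; the dotted line marks equal change. HSP90AA1 lies at -0.99 for pH 6.3 and -0.36 for pH 7.4, and HSPA9 at 0.66 for pH 6.3 and -0.22 for pH 7.4.

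No member had a rhythm of 24 h in either medium after adjustment, in a limma fit with a linear trend for each pH. At pH 6.3, 0 of all genes tested were called (0.0%), with 9.15% of genes and 3 members (DNAJB1, DNAJB6 and AHSA1) at an unadjusted p below 0.05. At pH 7.4, 5 genes (0.0422%) were called, with 3.74% of genes and 0 members at an unadjusted p below 0.05.

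The hourly differences of some members ran together. Across the 13 times, Pearson's r was 0.92 for HSPA8 with HSP90AA1, 0.85 for HSPD1 with HSPE1 and 0.97 for CCT4 with CCT8, but -0.71 for TCP1 with CCT2, -0.88 for HSPD1 with TRAP1 and -0.64 for HSF1 with HSF2. HSF1 with HSF2 is the only pair of its group, and the others are the highest or lowest pairs of theirs. Pairs from different groups ran as widely, from -0.94 to 0.97. The median r over pairs was 0.77 in the HSP70, HSP90 and HSP110 families, 0.32 in the CCT ring, -0.64 among the mitochondrial chaperones and 0.09 over pairs from different groups. These values describe 13 points that share libraries, including those that lean with GC content.

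Other genes of the folding machinery were counted in the same fit, over 4 to 52 h, where 22.4% of all genes tested were higher and 37.3% lower, with a median of -0.12. These shares are the background for each list below. Of 14 actin and tubulin genes, the main clients of the CCT ring, 0 were higher and 10 lower (median -0.44). TUBA1A, an alpha tubulin, averaged 36.1 ± 25.1 FPKM at pH 6.3 against 133 ± 29.9 FPKM at pH 7.4 (SD, n = 13 each; -2.06, limma adjusted p = 3.04e-06). Of 15 genes of prefoldin and CCT cofactors 3 were higher and 6 lower (median -0.16), from PFDN2, a prefoldin subunit (0.65, adjusted p = 1.45e-05), to TBCD, a tubulin-folding cofactor (-1.08, adjusted p = 6.54e-05), counts and a median that lie near those of all genes. Of 15 further HSP90 co-chaperones 1, SUGT1, was higher (0.39, adjusted p = 0.00157) and 8 were lower (median -0.27), with FKBP5, also a glucocorticoid target, the lowest at -0.78 (adjusted p = 0.000298).

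Among 13 other J proteins tested, 3 were higher and 2 lower (median -0.10), with DNAJC2 at 0.71 (adjusted p = 0.000209) and DNAJC13, which acts in endosomes, at -0.62 (limma adjusted p = 0.000154). Exchange factors and regulators of HSP70 gave 3 higher and 3 lower of 10 (median -0.14). BAG2, an inhibitor of the ubiquitin ligase CHIP, had 6.06 ± 1.40 FPKM at pH 6.3 and 13.5 ± 1.81 FPKM at pH 7.4 (SD, n = 13 each), without overlap (-1.05, adjusted p = 6.61e-07), and BAG5 was higher (0.81, adjusted p = 0.000332). BAG3 and BAG2, of one family, differed in direction.

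Of 14 genes of mitochondrial protein quality control 7 were higher and 3 lower (median 0.29). LONP1, the matrix protease, was higher by 0.82 (limma adjusted p = 0.00358), with its highest and lowest pH 7.4 values, 13.3 and 2.50 FPKM, at 28 and 48 h in libraries that leaned with GC content, and HSCB, a J protein of iron-sulphur cluster assembly, was lower at -0.71 (adjusted p = 0.00120). Of 14 genes tested from a list drawn up as HSF1-inducible, 7 were higher and 3 lower (median 0.35). That list shares FKBP4 and CACYBP with the further HSP90 co-chaperones. Its largest called changes were DNAJB9 at 1.36 (limma adjusted p = 1.24e-07) and HMOX1 at -0.84 (adjusted p = 0.00114). DNAJB9 and HMOX1 are known to respond to endoplasmic reticulum stress and to oxidative stress, and whether HSF1 induces them in these cells was not tested. HSPA6, an HSP70 that is nearly silent without stress, was below the filter. Of 9 genes of the heat shock factor family and its regulators 2 were higher and 1 lower (median 0.24), with the deacetylase gene SIRT1 at 0.47 (adjusted p = 0.000609) and HSBP1, whose product binds HSF1 trimers, lower at 13 of 13 times (-0.46, adjusted p = 8.04e-05).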

How the data were processed

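The authors deposited 1 table of FPKM values for 26 libraries. STAR, Cufflinks and the build hg38 are named in the submitters' processing notes, and libraries came from a stranded kit for polyadenylated RNA, per the labels' protocols. Versions, annotation release and strand use: not given in the sources used here. This FPKM table had 19806 rows, and 101 symbols stood on several. Coordinates, transcript GC content and shared 50-base windows came from GENCODE 29 (GRCh38). Depth came from the step between low values of 1808 genes, where 88.1 to 94.0% of values up to 3.5 fragments lay within 0.1 of a whole number.

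Values were tested as log2(FPKM + 1), a scale that understates the change of low genes, with limma 3.58.1 in R 4.3.3 (trend), genes of mean 1 FPKM or more, Benjamini-Hochberg at 0.05 and the time as a block. Both media of a time were harvested together, per the labels' protocols, which is where the pairing comes from; deviations of same-time libraries from their group means had a median correlation of 0.03 (lowest -0.51). Alternatives were other pseudocounts, filters and scalings, a correction for GC content, no block, and times left out. The members, lists and tests were chosen with earlier results of these data known. In every group of genes with a given role, the member with the largest difference and the members called in the interaction are given with all their ranges, and of each other list the largest called increase and decrease with at least 5 FPKM.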

Additional observations from a re-analysis of the deposited data

Results flagged for a closer look

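For 7 members the acid effect, pH 6.3 minus pH 7.4, differed between 28 to 52 h and 4 to 24 h by limma's interaction test (log2 difference of differences, adjusted over all genes tested). HSPA9, the mitochondrial HSP70, had 0.88 (adjusted p = 0.00101), with -0.21 in 4 to 24 h, which was not called, and 0.67 in 28 to 52 h, which was. TCP1 had 0.63 (adjusted p = 0.00704), CCT6A 0.42 (adjusted p = 0.0131) and TRAP1 0.78 (adjusted p = 0.0325), all with a larger acid effect in the later period. HSP90AA1 had -0.63 (adjusted p = 0.0183), BAG3 -0.50 (adjusted p = 0.0387) and HSPA4 -0.44 (adjusted p = 0.0412). Of 22 alternative settings, HSPA9 and HSP90AA1 lost their call in 1 each, TCP1 and CCT6A in 2 each, TRAP1 in 10, BAG3 in 12 and HSPA4 in 13. Leaving out single times ended the call of HSPA4 at 9 of 13 times, of BAG3 at 10 and of TRAP1 at 8, and of no other. The periods came from different sets of dishes, so that time and set cannot be told apart.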

How the results depend on the processing

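No called effect of the 32 tested members reversed under the alternatives run. Over 4 to 52 h the GC correction called 17 members higher. For the interaction (4 higher and 3 lower members and 2025 genes as reported), leaving out 8, 12, 20 and 28 h gave 2 higher members and 699 genes, and leaving out 44 and 48 h too gave 0 higher, 0 lower and 2 genes; lower members were 5 with quantile normalization and 8 with the GC correction. With single times left out, they ran from 1 to 6 and all genes from 1291 to 2651. In 4 to 24 h, higher members were 4 with quantile normalization, 18 with the GC correction, 3 without 4 times and 4 without 6, and lower ones 3 without the time block, 2 with the GC correction, and 1 and 1 without 4 and 6 times, with 1340 and 1242 of all genes. The later minus earlier contrast at pH 6.3 called 3011 genes without 4 times. Causes were not tested, except that fewer times were tested where times were left out.

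Without the time block, members higher and lower over 4 to 52 h were 13 and 4, against 11 and 6 with it, and in 4 to 24 h calls of HSPH1, CCT3 and CCT5 were lost and those of DNAJA2 and CCT4 gained. With 1 library per time and pH, single-time differences have no error of their own. For the single periods and the later minus earlier contrasts, the GC correction and leaving out times were chosen after seeing the data. Depth limits 8 h at pH 6.3 (11070000 fragments) and 12 h at pH 7.4 (9700000).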
